A study of Mus musculus with 6 samples.

Results

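The genes described here are the chromatin proteins Hmga1 and Hmga2, the RNA-binding proteins Igf2bp1, Igf2bp2 and Igf2bp3, the let-7 inhibitors Lin28a and Lin28b, and the transcription factor gene Arid3a. They were chosen by their roles in one fetal regulatory circuit and with their normalised read counts in these same 6 libraries already known, so their difference between the groups is described here and not tested. Of the 8 genes, 6 had a row among the 20097 genes with a value. No row carried the identifier of Igf2bp1 or of Lin28b, so the level of neither was analysed here and only their sequences are described. The lowest total of any gene with a row was 10 reads over the 6 libraries. The libraries were made from poly-A RNA of mouse bone marrow cells positive for c-Kit, the receptor on blood stem and progenitor cells. There were 3 libraries of genotype WT and 3 of genotype Runx1 KO, Runx1 being a transcription factor of blood formation. The labels give no age, sex, strain, deletion method or promoter driving a Cre, and do not say whether the 3 libraries of a group came from separate animals, so the errors measure only the spread between these libraries.

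HMGA proteins bind AT-rich DNA through short AT hooks and bend chromatin. HMGA2 is abundant in the embryo and in fetal blood stem cells and scarce in most adult tissues. LIN28 proteins bind precursors of the let-7 microRNAs and block their maturation, and let-7 in turn represses HMGA2, the IGF2BP family, ARID3A and LIN28 itself. In mice this circuit sets fetal against adult properties of blood stem cells and lymphoid progenitors. IGF2BP proteins bind and stabilise mRNAs, among them those of IGF2 and MYC.

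The let-7 family is shown first because its seed, bases 2 to 8 of the microRNA, defines the sites that these genes share. The RefSeq table on GRCm38.p6 held 9 let-7 names with the same seed, and miR-98 and miR-1961 had it too. The seed is in capitals in 3 of them.
mmu-let-7a-5p: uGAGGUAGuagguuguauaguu
mmu-let-7b-5p: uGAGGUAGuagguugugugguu
mmu-let-7g-5p: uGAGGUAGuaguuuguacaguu

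All 8 genes held the complement of this seed, CTACCTC, in the longest 3′ UTR annotated for them in GENCODE M21 on GRCm38, with 19 matches in all. Of the 19, 10 were followed by an A, a match of 8 bases, and these lay in 7 of the 8 genes, Hmga1 being the exception. Among 14303 listed genes with an annotated 3′ UTR, 10.2% held at least 1 such match and 1.2% held 2 or more. These shares take no account of UTR length, which had a median of 1113 bases over these genes. As these genes are textbook let-7 targets, the matches are background to the data and not a result of them. Capitals mark the match in the sites of the 6 genes with values, each with its place in the genome.
Hmga2 site 1, chr10:120364224-120364245, minus strand: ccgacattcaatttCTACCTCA
Hmga2 site 2, chr10:120362987-120363008, minus strand: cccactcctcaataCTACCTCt
Hmga2 site 3, chr10:120362549-120362570, minus strand: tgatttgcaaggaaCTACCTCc
Hmga2 site 4, chr10:120361691-120361712, minus strand: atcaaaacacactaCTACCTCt
Lin28a site 1, chr4:134005189-134005210, minus strand: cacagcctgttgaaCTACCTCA
Lin28a site 2, chr4:134004551-134004572, minus strand: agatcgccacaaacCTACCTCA
Arid3a site 1, chr10:79953896-79953917, plus strand: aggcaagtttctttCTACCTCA
Arid3a site 2, chr10:79954723-79954744, plus strand: gaaaaaactgttttCTACCTCt
Igf2bp2 site 1, chr16:22059473-22059494, minus strand: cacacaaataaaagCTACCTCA
Igf2bp3 site 1, chr6:49086787-49086808, minus strand: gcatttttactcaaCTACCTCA
Hmga1 site 1, chr17:27563278-27563299, plus strand: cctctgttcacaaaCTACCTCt

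Hmga2 held 4 matches in a 3′ UTR of 3014 bases. Of 1871 annotated UTRs of similar length, 0.16% held as many or more. Igf2bp1 and Lin28b also held 4 each, in UTRs of 6337 and 4445 bases. The first seed match of Hmga2 lay at base 58 of its 3′ UTR and the first of Lin28b at base 36. Lin28a and Arid3a held 2 each, and Hmga1, Igf2bp2 and Igf2bp3 held 1 each. Of UTRs of similar length, 2.35% held as many or more for Lin28a and 2.74% for Arid3a. For Hmga1, Igf2bp2 and Igf2bp3 these shares were 8.95%, 12.8% and 13.9%. Each of these sets of UTRs, that for Hmga2 included, held the UTR of the gene itself. Values per gene cannot show which 3′ UTR the transcripts used.

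**Figure D1:**
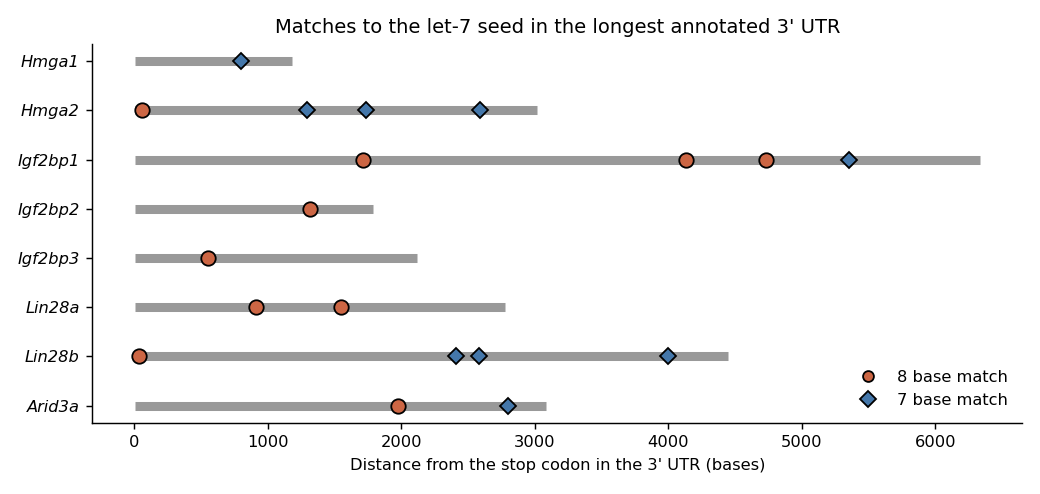
Positions of matches to the let-7 seed along the longest annotated 3′ UTR of each of the 8 genes, in bases from the stop codon (circles, 8 base match; diamonds, 7 base match; bars, the UTR). Hmga2, Igf2bp1 and Lin28b hold 4 matches each, and Hmga1 has no 8 base match.

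The mean of Hmga2 was 10.9 times as high in the libraries labelled Runx1 KO as in those labelled WT. The WT mean was the higher one for Lin28a, by a factor of 2.20, and for Arid3a, by a factor of 1.35. The groups overlapped for Hmga1, Igf2bp2 and Igf2bp3, and Igf2bp3 had 6 to 36 reads a library. The label of a fetal programme thus covers genes that did not move together: Hmga2 was higher, Lin28a and Arid3a were lower, and Lin28b and Igf2bp1 had no row.

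The libraries held between 23297526 and 26793380 reads, recovered from the deposited values as described under the processing. Values are normalised read counts, which are reads divided by a size factor of 0.956 to 1.04 for each library, and 3 reads corresponded to 2.88 to 3.14 of them. This limit covers counting error only, since PCR copies could not be told from separate molecules. Runx1 had 3031, 2799 and 3497 normalised reads in WT and 6648, 6720 and 5830 under the label Runx1 KO, a log2 change of 1.04 (SE 0.10, limma adjusted p 0.00163). Its transcript was thus higher where the label says knockout, so the labels are used here as names and every direction rests on them. Loss of a single exon would not be visible in counts summed over the gene. Kit, the gene of the sorted receptor, had 8301 ± 280 normalised reads in WT and 12649 ± 1093 under the label Runx1 KO (SD, n = 3). Over all 15410 genes tested, 21.9% passed an adjusted p of 0.05 in limma, 10.6% being higher under the label Runx1 KO and 11.3% lower. In 43.3% the groups did not overlap. The first principal component, with 69.2% of the variance, placed Runx1 KO replicate 1 (22.82) between the WT libraries (-64.98 to -39.82) and the other Runx1 KO libraries (60.78 and 64.51).

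Of the 6 genes, all passed the filter on low values, and 3 passed the threshold of limma, 1 higher (10.6% of all tested genes) and 2 lower (11.3%). This is 50% of them, beside 21.9% of all tested genes; the contrast is the one known when the genes were named, so nothing is read from the comparison. In the same 3 genes, 1 higher and 2 lower, the groups did not overlap, beside 43.3% of all tested genes (21.4% higher and 21.9% lower). The median log2 change was 0.08 over the 6 genes and -0.004 over all tested genes.

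**Figure D2:**
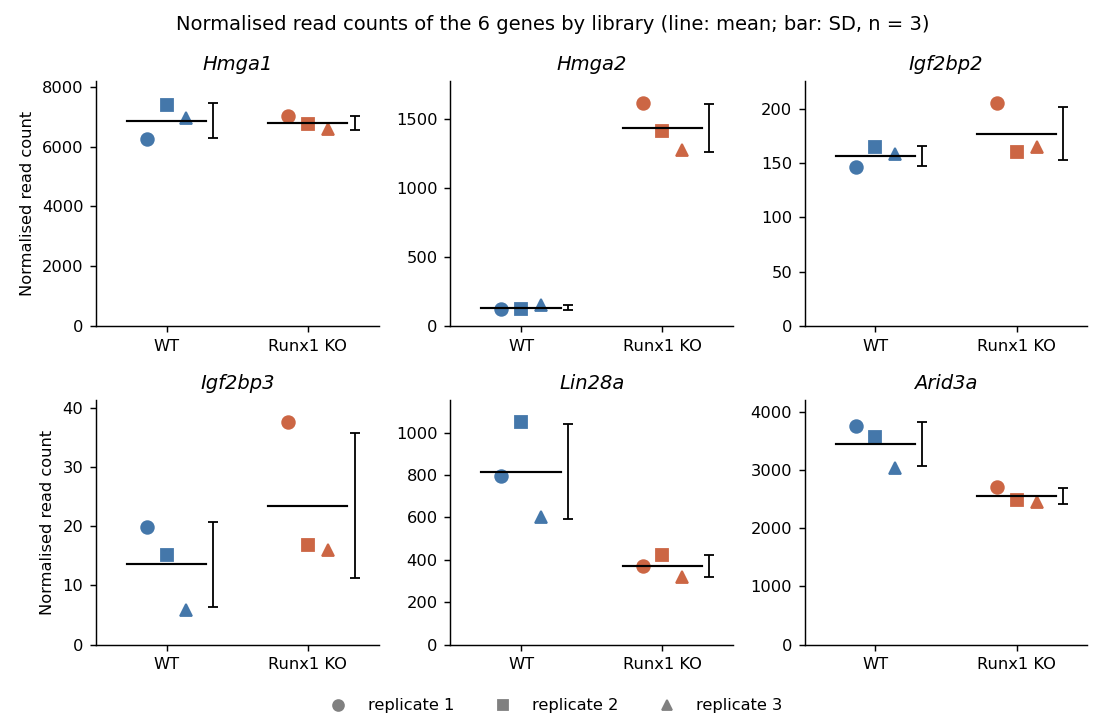
Normalised read count in each library for the 6 genes with values (symbols, replicates 1 to 3; lines, group means; bars, SD, n = 3; every vertical axis starts at 0). Hmga2 lies between 1270 and 1610 in the Runx1 KO libraries and between 120.1 and 152.5 in WT, while Hmga1 overlaps between the groups.

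Hmga2 (ENSMUSG00000056758; chromosome 10, 120361275 to 120476469, minus strand, protein coding) encodes the fetal member of the HMGA family. Its normalised read counts were 120.7, 120.1 and 152.5 in WT replicates 1 to 3 and 1610, 1412 and 1270 in Runx1 KO replicates 1 to 3. Every library labelled Runx1 KO was far above every library labelled WT. The means were 131.1 ± 18.6 and 1431 ± 171 (SD, n = 3), a ratio of 10.9. The log2 change was 3.44 (SE 0.14), place 12 from the largest rise among the 15410 tested genes. Within each group the libraries spanned 0.34 on the log2 scale. Runx1 KO replicate 1, which lay nearest to WT on the first principal component, had the highest Hmga2 value.

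Markers of stem and multipotent cells, chosen as a list of 10 genes, were higher in the same libraries. Of the 10, 7 passed limma upwards and 0 downwards, and their summed level was 21426 to 25548 normalised reads in WT and 32977 to 37823 in the libraries labelled Runx1 KO. None of the 10 was at 0 in all of the latter. Their part in the Hmga2 result was not tested. In bulk RNA, fewer cells of a type and less RNA per cell cannot be told apart.

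The opposite strand of the Hmga2 locus carries 1700006J14Rik, annotated as antisense and sharing 140 bases of exon with Hmga2, 2.07% of its exon length. It was picked out after its values were seen. It had 231.5, 249.2 and 191.8 normalised reads in WT and 113, 112 and 115.4 in the libraries labelled Runx1 KO. It fell by 0.97 on the log2 scale (SE 0.14, limma adjusted p 0.0057, and at most 0.0308 with a library left out), opposite in direction to Hmga2. Whether counting used the strand is not given in the sources used here, so reads over the shared bases cannot be assigned.

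Hmga1 (ENSMUSG00000046711; chromosome 17, 27556497 to 27563674, plus strand) encodes the family member that dividing adult progenitors keep. It had 6243, 7392 and 6957 normalised reads in WT and 7031, 6760 and 6576 in the libraries labelled Runx1 KO. The Runx1 KO values all lay within the WT range. The means were 6864 ± 580 and 6789 ± 229 (SD, n = 3), a log2 change of -0.01 (SE 0.07), which was 0.003 with TMM scaling and 0.07 when library totals set the scale. Its near-identical copy Hmga1b on chromosome 11 had 1025 ± 131 and 1052 ± 44.2 (SD, n = 3), and how reads were split between the copies is not given, so both levels are uncertain.

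Counted per kilobase of annotated exon, Hmga2 made up 0.603%, 0.507% and 0.683% of the summed level of Hmga1 and Hmga2 in WT replicates 1 to 3. In Runx1 KO replicates 1 to 3 it made up 6.70%, 6.15% and 5.71%. Hmga1 thus remained the main HMGA transcript in all 6 libraries, and the share held by Hmga2 was higher in each library labelled Runx1 KO than in any WT library.

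Igf2bp2 (ENSMUSG00000033581; chromosome 16, 22059009 to 22163299, minus strand) encodes the IGF2BP protein that adult tissues retain, and its gene is a known target of HMGA2. It had 146.4, 164.5 and 158.3 normalised reads in WT and 205, 160.6 and 165.1 in the libraries labelled Runx1 KO. Runx1 KO replicate 1 stood above all others, and replicate 2 fell inside the WT range. The means were 156.4 ± 9.18 and 176.9 ± 24.5 (SD, n = 3), a log2 change of 0.17 (SE 0.14), and 0.06 without Runx1 KO replicate 1. Beside the ratio of 10.9 for Hmga2, the ratio of the Igf2bp2 means was 1.13. Any effect of HMGA2 on Igf2bp2 in these cells was not tested.

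Igf2bp3 (ENSMUSG00000029814; chromosome 6, 49085223 to 49214957, minus strand) encodes an IGF2BP protein of fetal tissues and tumours. It had only 19.8, 15.1 and 5.76 normalised reads in WT and 37.7, 16.8 and 15.9 in the libraries labelled Runx1 KO. WT replicate 3 held 6 reads, and Runx1 KO replicate 1 held 36. The groups overlapped, and the log2 change of 0.79 (SE 0.52) ran from 0.31 without WT replicate 3 to 1.12 without WT replicate 1. With so few reads and this spread between libraries, nothing is read from the change. Igf2bp3 shares 1529 bases of exon, 18.7% of its length, with Malsu1 on the opposite strand, which had 247.3 to 332.6 normalised reads.

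Lin28a (ENSMUSG00000050966; chromosome 4, 134003330 to 134018841, minus strand) encodes an RNA-binding protein of embryonic stem cells that blocks let-7 maturation. It had 795.4, 1052 and 604.3 normalised reads in WT and 370.3, 421.2 and 321.2 in the libraries labelled Runx1 KO. Every library labelled Runx1 KO was below every WT library. The means were 817.4 ± 225 and 370.9 ± 49.99 (SD, n = 3), so the WT mean was 2.20 times the other, and the log2 change was -1.11 (SE 0.21). WT replicates differed from each other by up to 0.80 on the log2 scale, and the change ran from -1.31 without WT replicate 3 to -0.91 without WT replicate 2. Gm13061 on the opposite strand shares 234 bases of its exons, 5.86% of the length of Lin28a, and was not analysed here.

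Arid3a (ENSMUSG00000019564; chromosome 10, 79927043 to 79955018, plus strand) encodes an ARID-domain factor first known from the immunoglobulin heavy chain enhancer of B cells. It had 3770, 3566 and 3038 normalised reads in WT and 2715, 2494 and 2452 in the libraries labelled Runx1 KO. The groups did not overlap, with WT replicate 3 nearest to the lower group. The means were 3458 ± 378 and 2554 ± 141 (SD, n = 3), a log2 change of -0.43 (SE 0.09).

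B-lymphoid markers moved in the same direction as Lin28a and Arid3a. Of 8 markers, 6 passed limma downwards and 0 upwards, and their sum was 27674, 6166 and 10095 normalised reads in WT replicates 1 to 3 and 2840, 1070 and 1022 in Runx1 KO replicates 1 to 3. The B-lymphoid sum and Arid3a were both highest in WT replicate 1. Among the WT libraries, the neutrophil, monocyte and macrophage, T-lymphoid, plasmacytoid dendritic and stroma and endothelium sums were also highest in replicate 1. The B-lymphoid sum was lowest of the WT libraries in replicate 2, where Lin28a was highest. Also lowest there were the stem and multipotent, monocyte and macrophage, T-lymphoid, plasmacytoid dendritic and stroma and endothelium sums. Among the WT libraries, the erythroid sum and the eosinophil, mast cell and basophil sum were also highest in replicate 2. Neutrophil markers passed downwards in 7 of 8 genes, with sums of 271765 to 331171 in WT and 135212 to 184822 in the libraries labelled Runx1 KO. No marker of any list was at 0 in all libraries labelled Runx1 KO, and the part of these cell types in the results for Lin28a and Arid3a was not tested. Of the other marker lists, megakaryocyte genes passed upwards in 4 of 6 and downwards in 0, erythroid in 0 and 1 of 7, monocyte and macrophage in 1 and 2 of 7, eosinophil, mast cell and basophil in 0 and 4 of 6, T-lymphoid in 0 and 0 of 6, plasmacytoid dendritic in 0 and 1 of 5, and stroma and endothelium in 1 and 3 of 6.

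**Figure D3:**
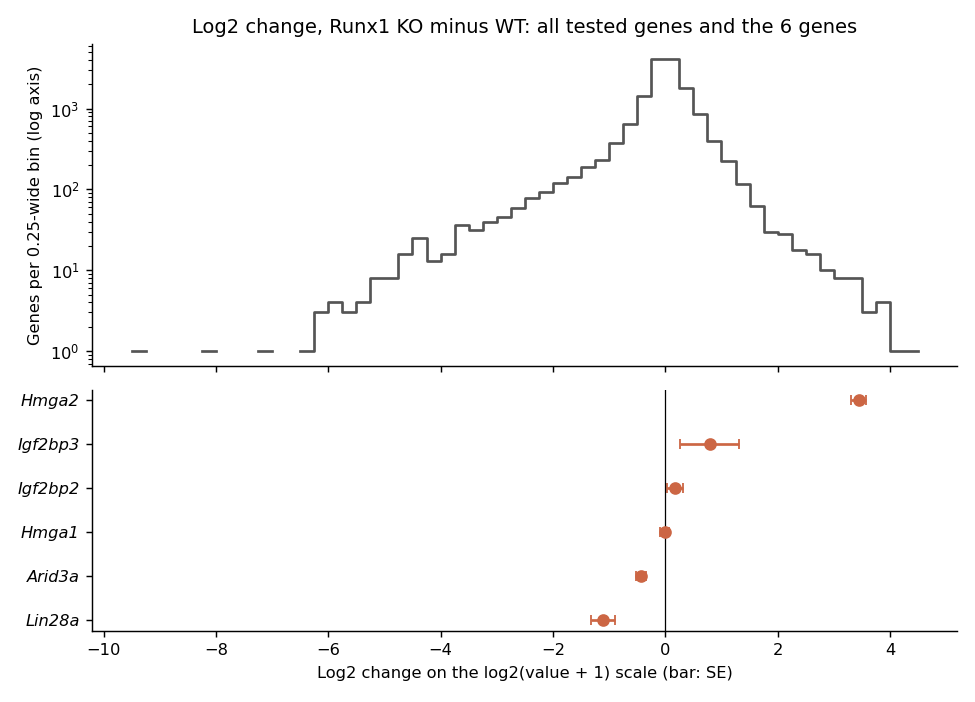
Upper panel, number of tested genes per bin of log2 change (Runx1 KO minus WT; log vertical axis); lower panel, log2 change of the 6 genes with SE. Hmga2 at 3.44 lies in the upper tail of all genes, Lin28a at -1.11 and Arid3a at -0.43 lie below 0, and Hmga1 lies at -0.01.

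Levels were compared between genes as normalised reads per kilobase of exon. In WT the order was Hmga1 (3230 ± 273), Arid3a (621.7 ± 68.0), Lin28a (204.5 ± 56.3), Igf2bp2 (21.1 ± 1.24), Hmga2 (19.4 ± 2.74) and Igf2bp3 (1.66 ± 0.88; SD, n = 3). Igf2bp2 and Hmga2 did not differ beyond their spread, and the other neighbours did. In the libraries labelled Runx1 KO the order was Hmga1 (3195 ± 108), Arid3a (459.1 ± 25.4), Hmga2 (211.3 ± 25.2), Lin28a (92.8 ± 12.5), Igf2bp2 (23.9 ± 3.31) and Igf2bp3 (2.88 ± 1.51; SD, n = 3). Hmga2 thus moved from the fifth place to the third, above Lin28a, and all neighbours in the second order differed beyond their SD. The exon length pools all annotated transcripts of a gene, so these levels are approximate.

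**Figure D4:**
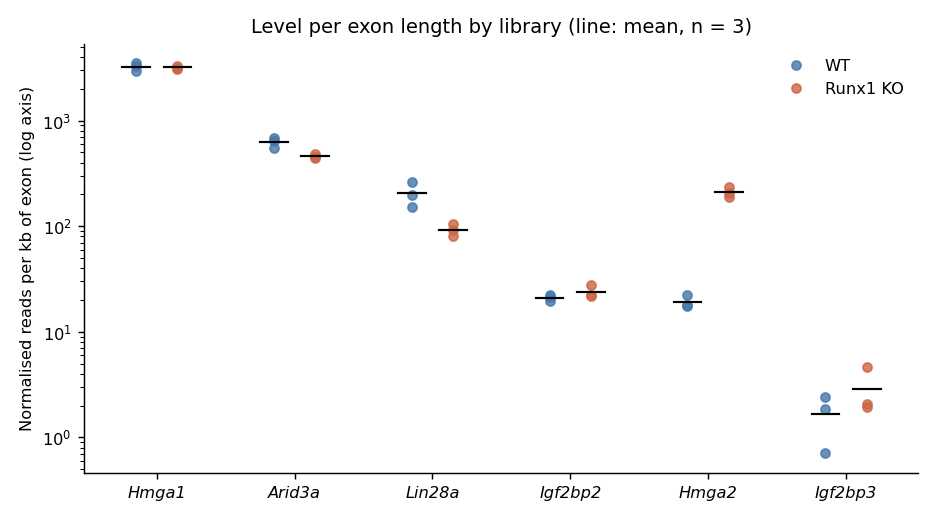
Normalised reads per kilobase of exon for the 6 genes in each library (points; log axis) with group means (lines, n = 3), ordered by the WT mean. Hmga2 is level with Igf2bp2 in WT (19.4 and 21.1) and above Lin28a in the libraries labelled Runx1 KO (211.3 and 92.8).

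The genes whose profile over the 6 libraries lay nearest to that of Hmga2 were Ccl24, Plagl1, Hunk, Magi1 and Alox12. Likeness was the root mean square difference between log2 profiles centred on their own means, and it was 0.34, 0.35, 0.36, 0.37 and 0.39 for these genes, against a median of 1.74 over all tested genes. The profiles spanned both groups, so this measure mainly picks genes whose change between the groups is like that of Hmga2. Both the small differences and the gap to the median follow largely from that change, which was known beforehand. Shared regulation was not tested. Ccl24 encodes a chemokine for eosinophils, Plagl1 an imprinted zinc finger factor and Alox12 the lipoxygenase of platelets. Their log2 changes were 3.91 (SE 0.28) for Ccl24, 3.57 (SE 0.25) for Plagl1, 3.28 (SE 0.26) for Magi1 and 2.83 (SE 0.33) for Alox12. Hunk had 0.989, 3.03 and 2.88 normalised reads in WT, at the level of a few reads, and 34.5, 25.8 and 19.9 under the label Runx1 KO. Alox12 and Hunk had their highest value in Runx1 KO replicate 1 and their lowest of that group in replicate 3, as Hmga2 did, with 175.7, 103.1 and 77.6 normalised reads of Alox12.

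The nearest profiles to the other genes were those of Stk16 and Nosip for Hmga1 (0.03 each), Slc25a20 and Gm10288 for Igf2bp2 (0.04 each) and Pcsk7 and Ints12 for Arid3a (0.02 and 0.03). Gm7336 and F7 lay nearest to Lin28a (0.12 and 0.15). Igf2bp3 was nearest to the weakly expressed Hist1h3i and Myadml2 (0.14 and 0.20). None of these nearest genes was one of the 6 themselves. Only the nearest few of all tested genes were kept, and the 6 differed in their change, so nothing is read from this.

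Promoter windows, 250 bases before to 50 after the start, were found for Hmga1, Hmga2, Igf2bp2, Igf2bp3, Lin28a and Lin28b in the RefSeq table on GRCm38.p6. None of them held the RUNX core TGTGGT or its reverse ACCACA, which 16.8% of 32851 promoter windows held. The GATA motif AGATAA or its reverse TTATCT, held by 11.2% of windows, had 2 matches in Lin28b and none in the others. GC content was 39% for Lin28b, 57.7% for Hmga2, 60.3% for Igf2bp3, 63.3% for Lin28a, 72.3% and 74% for the 2 starts of Hmga1 and 76.7% for Igf2bp2, beside a median of 52.7% over all windows. A match or its absence describes these letters in this window only.

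Related genes were taken from 8 lists with 110 different genes, of which 96 had a row and 93 were tested. Over the lists, 12 genes passed limma upwards and 14 downwards, 28% of those tested beside 21.9% of all genes, and their median log2 change was -0.003. Without Runx1 KO replicate 2 the lists held 5 calls, without Runx1 KO replicate 3 they held 9 and without WT replicate 3 they held 12; these fits also called fewer genes overall. Of 19 list genes named by rule, E2f2, Mycn, Actb and Hmgb2 were among the 5 that kept an adjusted p under 0.05 whichever library was left out. The other 14 all lost it without Runx1 KO replicate 2. Of the 14, 12 lost it without Runx1 KO replicate 3, 10 without WT replicate 3, 9 without WT replicate 2, 7 without WT replicate 1 and 2 (Zbtb16 and Cdc25a) without Runx1 KO replicate 1. Below, the highest adjusted p over these 6 fits follows the main one as "up to".

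Most let-7 enzymes did not pass the test. Of 15 tested genes of let-7 processing and LIN28 function, 1 rose, 0 fell and 14 did not pass, with a median log2 change of 0.16. The gene that rose was Tut4, the terminal uridylyltransferase that LIN28A recruits to tag let-7 precursors. It had 3237, 2650 and 2715 normalised reads in WT and 3715, 3941 and 3659 in the libraries labelled Runx1 KO, a log2 change of 0.40 (SE 0.09, limma adjusted p 0.0196, up to 0.0835). Dis3l2, the exonuclease that degrades the tagged precursors, had 1202 and 1405 normalised reads on average (limma adjusted p 0.0664). The microprocessor genes Drosha and Dgcr8 had log2 changes of 0.11 and 0.18 and Dicer1 0.20, with limma adjusted p values of 0.346, 0.237 and 0.0995. The host transcripts of let-7 clusters were not analysed here, apart from Mir99ahg at 9.52 and 14.9 normalised reads on average.

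Known let-7 targets outside the 8 genes moved both ways. Of 24 tested, 7 rose, 6 fell and 11 did not pass, with a median log2 change of -0.07, and 17 of the 24 held a seed match in the longest 3′ UTR. Mycn, a MYC family gene of stem cells, had 121.7, 136.2 and 205.3 normalised reads in WT and 332.6, 472.7 and 332.2 under the label Runx1 KO. It rose by 1.31 in log2 terms (SE 0.23, limma adjusted p 0.0106, up to 0.0441). Nr6a1, an orphan nuclear receptor of early embryos, rose by 0.88 (SE 0.25, limma adjusted p 0.0449, up to 0.156). E2f2, a cell cycle factor also active in terminal erythroid division, had 4433, 3302 and 2944 normalised reads in WT and 1560, 1155 and 1280 under the label Runx1 KO, and fell by 1.41 (SE 0.17, limma adjusted p 0.00328, up to 0.0178). Arid3b, the closest relative of Arid3a, fell by 0.92 on the log2 scale (SE 0.19, limma adjusted p 0.0168, up to 0.0626).

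Over all tested genes with an annotated 3′ UTR, the share that passed limma was close between classes of let-7 seed matches. The 11287 genes with no match had a median log2 change of -0.007 and 23.8% of them passed limma. The 1173 genes with 1 match had 0.02 and 24%, and the 161 genes with 2 or more had 0.006 and 24.8%. In this last class, which holds Hmga2, Lin28a and Arid3a, 14.9% rose and 9.94% fell, beside 11.5% and 12.3% of genes with no match. No test of this difference was made. The classes also differ in 3′ UTR length, with a median of 3601 bases in the last class and 1047 in genes with no match.

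The insulin-like growth factor axis was split. Of 10 tested genes, 3 rose, 2 fell and 5 did not pass. Igfbp5 and Igfbp7, secreted IGF-binding proteins, fell by 2.87 (SE 0.57) and 1.64 (SE 0.40) on the log2 scale, with limma adjusted p values of 0.0149 (up to 0.0591) and 0.0286 (up to 0.0845). Igfbp5 varied from 97.9 to 339 normalised reads among the WT libraries, and its call was lost without Runx1 KO replicate 2 or without Runx1 KO replicate 3. Of 6 stroma and endothelium markers, 3 also passed downwards and 1 upwards, and the part of such cells in these 2 falls was not tested. Grb10, an imprinted adaptor that dampens insulin receptor signalling, rose by 0.90 (SE 0.26, limma adjusted p 0.0458, up to 0.134; 0.0542 in edgeR). Insr, the insulin receptor, rose by 0.33 (SE 0.08, limma adjusted p 0.0263, up to 0.108) and Igfbp4 by 0.28 (SE 0.06, limma adjusted p 0.0254, up to 0.101). Irs1, an adaptor of both receptors, was not tested; it had 91.0, 6.05 and 10.6 normalised reads in WT and 0 in all 3 libraries labelled Runx1 KO. Igf2, H19 and Igfbp2 were not analysed here.

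Among the 12 tested genes of a list of partners and bound mRNAs of the IGF2BP proteins, which left out Myc, 0 rose and 1 fell. The gene that fell was Actb, the founding target of Igf2bp1 in cell migration, with 39607, 38247 and 39319 normalised reads in WT and 30360, 27147 and 25606 under the label Runx1 KO. Its log2 change was -0.50 (SE 0.08, limma adjusted p 0.00641, up to 0.0359). Myc, also a bound mRNA, was counted with the let-7 targets instead. It had 5517, 6451 and 7402 normalised reads in WT and 8650, 10911 and 10340 under the label Runx1 KO. Its log2 change was 0.63 (SE 0.13, limma adjusted p 0.0159), and its adjusted p with a library left out is not given here. The mRNP proteins Syncrip, Elavl1 and Hnrnpu had log2 changes of -0.003, -0.03 and 0.03. Among fetal and embryonic blood genes, 7 were tested, of which Cbx2, a Polycomb gene, rose by 0.54 (SE 0.15, limma adjusted p 0.0439, up to 0.146) and Zbtb16, the PLZF factor of innate-like lymphocytes, fell by 0.74 (SE 0.18, limma adjusted p 0.0276, up to 0.0732). Bcl11a, the repressor of fetal globin, had a limma adjusted p of 0.0609 at a log2 change of 0.29. The embryonic globins Hbb-bh1, Hbb-y and Hba-x and the fetal stem cell factor Sox17 had no row and were not analysed here.

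Of 12 tested genes of other HMG proteins, 1 rose, 2 fell and 9 did not pass. Hmgb2, a chromatin protein of dividing cells, fell by 0.45 (SE 0.07, limma adjusted p 0.00624, up to 0.0363). Hmgn1, a nucleosome-binding protein, fell by 0.36 (SE 0.10, limma adjusted p 0.0436, up to 0.118, and 0.0856 when library totals set the scale). Of 10 tested cell cycle genes linked to HMGA2, 0 rose, 4 fell and 6 did not pass, with a median log2 change of -0.35. The cyclin genes Ccna2 and Ccnb2 fell by 0.36 (limma adjusted p 0.0182, up to 0.0656) and 0.35 (limma adjusted p 0.0162, up to 0.0734). Without Runx1 KO replicate 2 the list held 0 calls, and without Runx1 KO replicate 3 it held 1, Ccna2 (limma adjusted p 0.046). Rb1, the retinoblastoma gene whose protein HMGA2 binds, fell by 0.51 (SE 0.10, limma adjusted p 0.0168, up to 0.0715). Cdc25a, a phosphatase that activates cyclin-dependent kinases, fell by 0.37 (SE 0.10, limma adjusted p 0.0382, up to 0.0953, and 0.0669 with library totals). Cdkn2a and Cdkn2b, the senescence genes linked to Hmga2 in stem cells, had no row and were not analysed here.

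Of 12 tested ARID genes other than Arid3a, Arid3b fell as given above and Arid2, a subunit of a SWI/SNF complex, rose by 0.26 (SE 0.08, limma adjusted p 0.0467, up to 0.162, and 0.052 with no filter on low values). Arid1a and Arid1b, subunits of the other SWI/SNF complex, had log2 changes of 0.01 and 0.04.

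**Figure D5:**
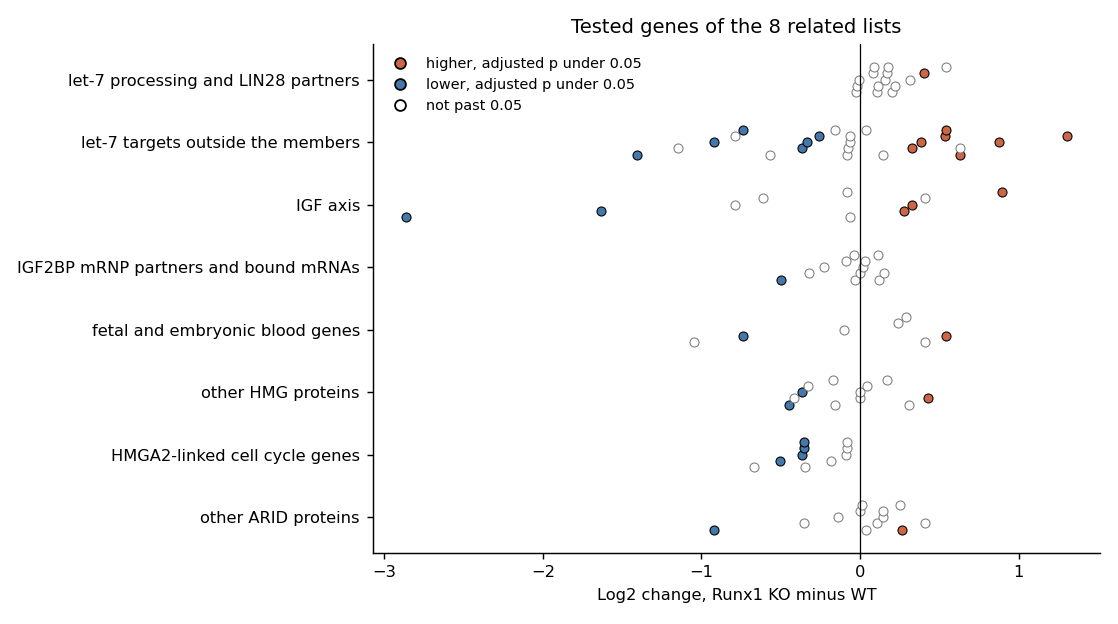
Log2 change (Runx1 KO minus WT) of each tested gene in the 8 related lists (filled, limma adjusted p under 0.05; open, not past it). The let-7 targets and the IGF axis hold calls on both sides of 0, with E2f2 at -1.41 and Mycn at 1.31, and the let-7 processing genes cluster near 0 with Tut4 the only call.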

How the data were processed

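Poly-A RNA of 6 libraries was sequenced on a HiSeq2500, per the labels' protocols. HISAT2, HTSeq 0.9.1 and the builds mm10 and GRCm38 are named in the submitters' processing notes, with no settings. The values deposited by the authors are a signal: in each library 100% were whole multiples of one step (tolerance 0.001), as read counts divided by a size factor would be, a step that no source used here records; the multiples are the recovered reads, 23297526 to 26793380 a library. Symbols matched 20077 of 20097 identifiers. limma 3.58.1 (lmFit, eBayes with trend; R 4.3.3) was fitted to log2(value + 1), group as the only term, two-sided, Benjamini-Hochberg over the 15410 genes passing filterByExpr (minimum count 10, total 15), and was checked on simulated data. A log2 change on this scale understates that of low genes. The 8 genes, the lists and the tests were chosen with earlier results of these data known.

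Named genes were the 8, Runx1, Kit, and in each list the 2 largest rises and the 2 largest falls past the threshold (all calls for let-7 processing and the IGF axis), and the 5 genes most like Hmga2 and 2 most like each other gene. Other list genes with values were chosen after their values were seen. Alternatives were edgeR 4.0.16 and DESeq2 1.42.0 on recovered reads, other scalings, pseudocounts 0.5 and 5, no filter, the replicate block and leaving out each library. One named gene of the lists is not reported here.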

Additional observations from a re-analysis of the deposited data

How the results depend on the processing

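The 6 genes kept the sign of their log2 change in every setting, apart from Hmga1, which ran from -0.02 to 0.07 with all libraries kept and from -0.08 to 0.04 with one left out. Hmga2 ran from 3.40 to 3.52 and from 3.35 to 3.55, Lin28a from -1.14 to -1.03 and from -1.31 to -0.91, Arid3a from -0.44 to -0.35 and from -0.52 to -0.37, Igf2bp2 from 0.17 to 0.25 and from 0.06 to 0.24, and Igf2bp3 from 0.62 to 0.87 and from 0.31 to 1.12. With a library left out, genes called ran from 1367 to 3597 against 3370, higher from 632 to 1634, lower from 735 to 1963, and genes of the 8 lists from 5 to 29 against 26; the low counts came without Runx1 KO replicate 2, and a group of 2 has fewer samples. Library totals gave 2383 higher and 1372 lower genes, against 1631 and 1739. Over all settings the calls ran from 0 to 4 for let-7 processing (1), 2 to 14 for let-7 targets (13), 0 to 7 for the IGF axis (5), 1 to 3 for IGF2BP partners (1), 0 to 4 for fetal genes (2), 2 to 5 for HMG proteins (3), 0 to 5 for cell cycle genes (4) and 0 to 4 for ARID genes (2); the cause was not tested. The replicate block gave 3843 genes, and same-numbered libraries had deviations correlated at 0.29, 0.13 and -0.01, so the numbers were not taken to pair them; WT replicate 2 correlated best with Runx1 KO replicate 3 (0.23). With the block the adjusted p of Nr6a1 was 0.0568 and that of Cbx2 0.0661. Of 189 values of named genes with all libraries kept, 182 kept their call and 7 lost it; with one left out, 72 of 126 kept it and 54 lost it.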
